A study of Mus musculus with 4 samples.

Results

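Calb1, Calb2, Pvalb and Pcp4 are neuron marker genes for small proteins that bind calcium or the calcium sensor calmodulin, and they were described here across GABAergic and glutamatergic neurons of the BNST (stria terminalis bed nucleus), which belongs to the extended amygdala of the forebrain. These 4 genes were chosen by name from the 20136 genes in the count tables, and all 4 were listed there. The tissue came from male wildtype C57BL/6J mice as BNST punches, processed by Drop-seq, a droplet method that tags each captured RNA molecule with a unique molecular identifier (UMI). There were 4 libraries (labelled batches 1 to 4) of 1 group, each made from 6 pooled mice, with no treatment and no control group, so that every comparison set cell classes of the same libraries side by side. The labels do not give the age of the mice, and single mice cannot be told apart within a pool. The series concerned prepronociceptin neurons, whose gene is Pnoc.

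Calbindin (Calb1), calretinin (Calb2) and parvalbumin (Pvalb) are EF-hand proteins that bind calcium in the cytosol and buffer its rise after activity. Pcp4 (also called PEP-19) has no EF hand of its own and changes how calmodulin binds calcium. In cortex and striatum these genes are widely used to tell classes of inhibitory neuron apart: calbindin in striatal projection neurons and many somatostatin cells, calretinin and parvalbumin in separate interneuron classes. They are not exclusive to inhibitory neurons, and calretinin and Pcp4 also mark groups of excitatory cells.

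In the GRCm38 reference annotation (GENCODE vM21), Calb1 lies on chromosome 4 from 15881264 to 15908064 on the plus strand. Calb2 lies on chromosome 8 from 110137502 to 110168210 on the minus strand, Pvalb on chromosome 15 from 78191114 to 78206400 on the minus strand, and Pcp4 on chromosome 16 from 96467606 to 96525793 on the plus strand. No listed gene overlapped Calb1, Calb2 or Pvalb, while Igsf5 overlapped Pcp4 on the same strand. UMIs count molecules tagged at the 3' end and were not scaled by gene length, so levels of different genes are not compared with each other.

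The tables held 14018026 UMIs in 10200 barcodes. After the filters, 4181 cells remained (837 to 1281 per library, with a median of 1483.5 to 2504 UMIs per cell), and none of their barcodes occurred in more than 1 library. Cells were assigned to classes by marker UMIs. The GABAergic gate (Gad1, Gad2, Slc32a1) held 2184 cells, the glutamatergic gate (Slc17a6, Slc17a7) 84, and the gates of oligodendrocytes, their precursors, astrocytes, endothelial cells and microglia 1518 together, here called non-neuronal. A further 395 cells stayed unassigned. Genes not used for the gates followed them: the summed level of the neuronal genes Snap25, Syt1, Stmn2, Rbfox3, Snhg11 and Meg3 was 12844 to 23904 CPM (UMI counts scaled by the total UMIs of the class) in GABAergic-gated cells over the libraries, 11496 to 21441 CPM in glutamatergic-gated ones and 388 to 1005 CPM in non-neuronal cells.

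Calb1, Calb2 and Pcp4 were genes of neurons in these punches, and Pvalb was nearly absent. GABAergic-gated cells had 386, 306, 356 and 301 CPM of Calb1 in libraries 1 to 4, a mean of 337 ± 40.8 CPM (SD, n = 4). Non-neuronal cells had 8.12 ± 2.55 CPM, from 18 UMIs. Every GABAergic value was above every non-neuronal one. Calb2 stood at 145, 174, 146 and 144 CPM in GABAergic-gated cells (152 ± 14.7 CPM) and at 15.99 ± 11.8 CPM in non-neuronal ones, and the ranges were apart here too. Pcp4 reached 886, 918, 536 and 933 CPM in GABAergic-gated cells (818 ± 189 CPM), with library 3 below the other libraries, against 29.5 ± 9.81 CPM in non-neuronal cells. Among the non-neuronal gates, oligodendrocyte precursors had Pcp4 at 139 ± 47.0 CPM with a UMI in 22 of 146 cells, where oligodendrocytes had 15.4 ± 2.84 CPM and astrocytes 23.4 ± 7.87 CPM. The summed neuronal genes stood at 2246 CPM in the precursors, 360.1 CPM in oligodendrocytes and 679 CPM in astrocytes, with libraries pooled, and their part in the Pcp4 values was not tested. The endothelial mean of 275 CPM came from 1 cell. Pvalb had 119 UMIs in GABAergic-gated cells and 2 in non-neuronal cells.

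Each gene's sums per library were tested with edgeR's quasi-likelihood test with library as a block, and p-values were adjusted by Benjamini-Hochberg over all genes tested, with calls at an adjusted p under 0.05. For GABAergic against non-neuronal cells the fitted log2 difference (log2 fold change) was 5.08 for Calb1 (SE 0.20, adjusted p = 2.51e-39), 3.02 for Calb2 (SE 0.21, adjusted p = 4.02e-23) and 4.44 for Pcp4 (SE 0.16, adjusted p = 7.37e-43), each higher in 4 of 4 libraries. In that comparison 36.6% of 10117 tested genes were called higher and 34.5% lower, so a call there is common. With doublets kept, the log2 fold changes were 4.00, 2.39 and 3.54. Calb2 gave 3.61 with a minimum of 800 genes per cell and 4.88 with every cell thinned to 2000 UMIs. Pvalb did not pass the filter on low counts in any of the 19 fits, so 3 of the 4 genes have tests.

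As a share of cells at equal depth, with cells of at least 2000 UMIs thinned to 2000, Calb1 was detected in 37.8%, 27.7%, 33.2% and 32.5% of GABAergic-gated cells, a mean of 32.8% ± 4.11 (SD, n = 4, 1606 cells). The mean was 17.4% ± 3.14 for Calb2, 56.6% ± 6.49 for Pcp4 and 0.619% ± 0.914 for Pvalb. The same share in 250 non-neuronal cells was 0.555% for Calb1, 0.217% for Calb2, 4.83% for Pcp4 and 0.217% for Pvalb. Free RNA, misassigned cells and expression in these cells may all enter it, and they were not told apart. The median depth before thinning was 4351 UMIs in the GABAergic cells and 2622.5 UMIs in the non-neuronal ones. For Calb1, Calb2 and Pcp4 the GABAergic share was higher in 4 of 4 libraries, and the exact permutation test by sign flips (two-sided) gave p = 0.13, the smallest p that 4 libraries allow. Without thinning the GABAergic shares were 38.8%, 22.9% and 63.0%.

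**Figure D1:**
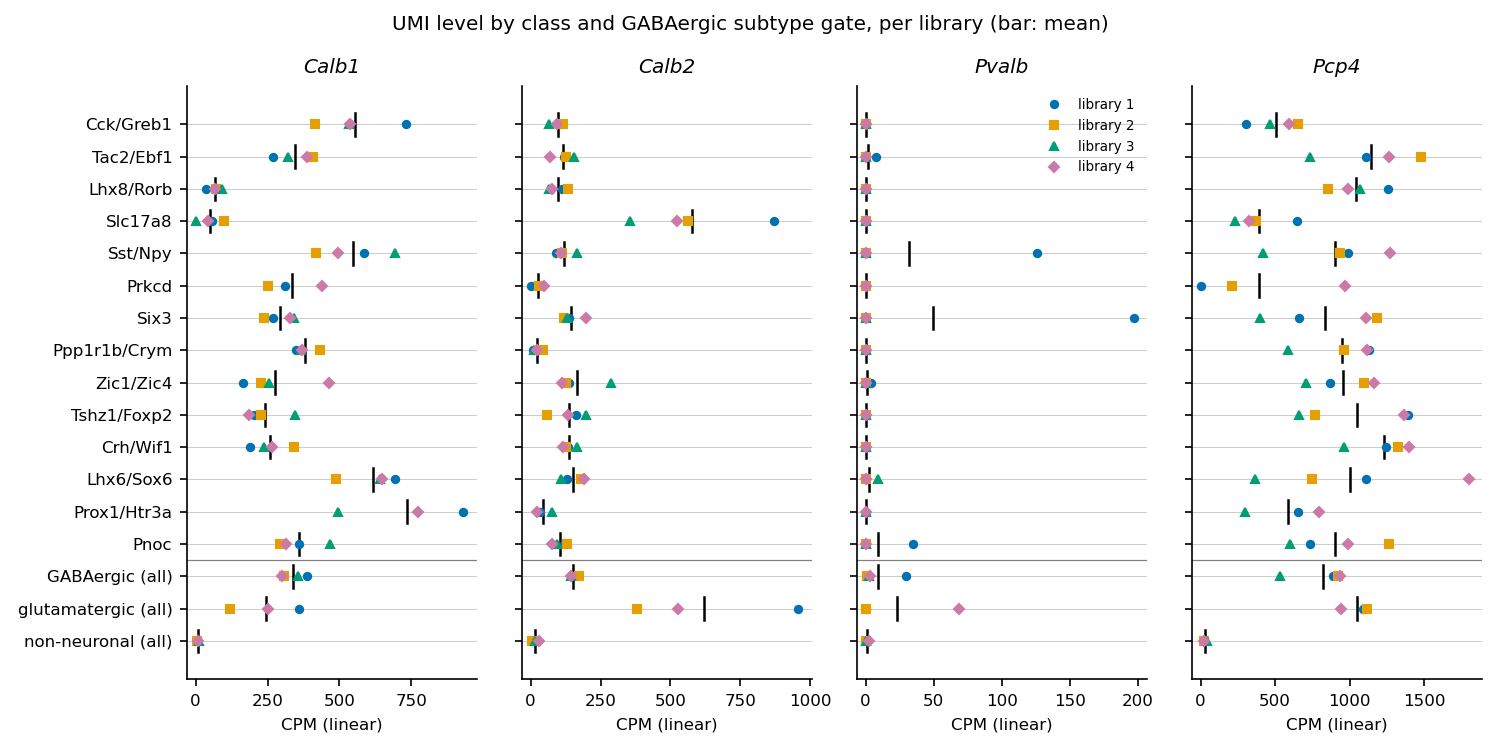
Level of each gene in CPM (linear axis, a scale of its own per gene) by GABAergic subtype gate and by class, with 1 point per library and a bar at the mean. Groups with under 10 cells in a library have no point for it. Calb2 was high in the Slc17a8 gate and in glutamatergic cells, Calb1 was low in the Slc17a8 and Lhx8/Rorb gates, and Pvalb was above 100 CPM only in library 1 in the Sst/Npy and Six3 gates, which share 5 of their Pvalb cells.

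Glutamatergic-gated cells differed from GABAergic-gated cells in Calb2. They numbered 48, 17, 7 and 12 in libraries 1 to 4, and library 3, with under 10, was left out of the test. Of the 84 cells, 83 passed on Slc17a6 alone, which encodes the vesicular glutamate transporter VGLUT2, 1 had both transporters, and none passed on Slc17a7 alone. Their Calb2 level was 958, 381 and 527 CPM in libraries 1, 2 and 4 (622 ± 300.0 CPM), above all 4 GABAergic values. Calb2 was detected in 63 of the 84 cells (75.0%, exact 95% interval 64.4% to 83.8%, which covers counting error only), against 22.9% of GABAergic-gated cells. Thinned to 2000 UMIs, the share was 45 of 77 cells.

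Calb2 had a log2 fold change, GABAergic minus glutamatergic, of -2.04 (SE 0.18, adjusted p = 1.76e-27 in edgeR), lower in 3 of 3 libraries, and -1.31 without library 1. The differences by library in log2(CPM + 1) had a mean of -1.90 and an SD of 0.80 (n = 3), a spread that the SE does not measure. In this comparison 0.906% of 9493 genes were called lower in GABAergic cells and 1.5% higher. Calb1 had 359, 118 and 252 CPM in glutamatergic cells of libraries 1, 2 and 4, and Pcp4 had 1089, 1116 and 939 CPM. Neither passed: the log2 fold change was 0.43 for Calb1 (SE 0.19, adjusted p = 0.426) and -0.14 for Pcp4 (SE 0.15, adjusted p = 0.892). Pvalb had 4 UMIs in 2 glutamatergic-gated cells. The glutamatergic cells of library 1 carried 141 CPM of the GABAergic markers, against 0 to 22.9 CPM in the other libraries, and the part of this in the result was not tested.

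Within the glutamatergic cells Calb1 and Calb2 were found in the same cell 33 times, where the numbers of cells with each gene (36 and 63 of 84) gave 27.0 if they were unrelated. Of the 33 cells, 25 came from library 1. For Calb2 with Pcp4 the count was 44 against 41.2 expected, and for Calb1 with Pcp4 27 against 23.6. These are pooled, unthinned counts of few cells and were not tested.

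Among GABAergic-gated cells, 14 subtype gates were read from marker genes, each needing at least 2 UMIs over its markers. The gates held 51 (Prkcd) to 282 (Sst/Npy) cells and may overlap: 707 cells were in no gate, 811 in 1 and 666 in 2 or more. Each gate was compared with the GABAergic cells outside it. Cells in gates were often deeper than the GABAergic median of 3468 UMIs (3196 to 6032 UMIs by gate), which CPM scales for. Of the 42 tests of Calb1, Calb2 and Pcp4, 25 passed an adjusted p under 0.05, 10 higher and 15 lower in the gate, where 2.42% of all gene tests in these fits were called higher and 2.52% lower. Of these 25, 9 were called under every alternative that could be fitted, 13 when the test was DESeq2 and 11 without the library term. The 9 were Calb1 in the Lhx6/Sox6, Prox1/Htr3a, Sst/Npy, Lhx8/Rorb and Slc17a8 gates, Calb2 in the Slc17a8, Ppp1r1b/Crym and Prkcd gates, and Pcp4 in the Slc17a8 gate.

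Calb1 was higher in gates of genes that mark interneurons. Lhx6 and Sox6 are transcription factors of interneurons from the medial ganglionic eminence, and the cells of their gate had 693, 487, 641 and 646 CPM of Calb1 (617 ± 89.9 CPM) against 306 ± 33.1 CPM outside it. All 4 values were above those outside the gate, and the log2 difference was 1.01 (SE 0.10, adjusted p = 8.77e-09 in edgeR), where 2.79% of genes were called in this gate. The Prox1/Htr3a gate, of genes common in interneurons from the caudal ganglionic eminence, had 930.5, 496 and 773 CPM in libraries 1, 3 and 4, and library 2, with 6 cells, was left out. Its log2 difference was 1.11 (SE 0.14, adjusted p = 1.96e-12), with 1.7% of genes called. In the Sst/Npy gate, of the neuropeptides somatostatin and neuropeptide Y, Calb1 stood at 585, 419, 694 and 496 CPM, all above the 307 ± 31.4 CPM outside. Its log2 fold change there was 0.83 (SE 0.09, adjusted p = 2.53e-09), with 1.46% of genes called. The 3 gates overlap with each other and with further gates. With cells in 1 gate only, 21 of 140 Lhx6/Sox6 cells and 13 of 78 Prox1/Htr3a cells remained. These 2 gates could not be fitted then, while the Sst/Npy gate, with 107 cells, was still called.

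The Cck/Greb1 gate, which takes in cells with the neuropeptide cholecystokinin, was higher too, at 731, 415, 535 and 536 CPM (log2 fold change 0.88, SE 0.10, adjusted p = 2.19e-09 in edgeR), with 5.3% of genes called. At a limit of 5% mitochondrial UMIs its value was 0.47 (adjusted p = 0.0979), and with cells thinned to 2000 UMIs 0.68 (adjusted p = 0.0662). With 70.4% of its cells carrying a Calb1 UMI, this gate held 19.1% of the Calb1 UMIs of GABAergic cells in 6.96% of those cells. These shares are not corrected for depth, and its median of 6032 UMIs was the highest of the gates, against 3468 in all GABAergic cells. At 2000 UMIs, 33 of its 142 cells had Calb1 alone, 37 Calb1 with Pcp4, 2 Calb1 with Calb2 and 2 all 3 genes.

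Calb1 was lowest in the Slc17a8 and Lhx8/Rorb gates. Slc17a8 encodes the vesicular glutamate transporter VGLUT3, and the 84 cells of its gate had 58.6, 98.0, 0 and 44.4 CPM of Calb1 (50.2 ± 40.4 CPM) against 352 ± 41.8 CPM outside. All 4 libraries were lower, and the log2 difference was -2.74 (SE 0.27, adjusted p = 3.08e-09 in edgeR), or -3.38 without library 2, with 3.44% of genes called. It reached -4.48 in cells of 1 gate only and -4.73 with cells thinned to 2000 UMIs. In the gate of the transcription factors Lhx8 and Rorb the level was 37.2, 69.9, 93.5 and 69.1 CPM, and again every library was lower than outside (358 ± 43.2 CPM). The log2 difference was -2.60 (SE 0.20, adjusted p = 1.84e-12), with 10.6% of genes called, and it was -1.63 when 1 marker UMI was enough for the gate. In the order of mean levels over the 14 gates and the glutamatergic cells, ranges over libraries overlapped between neighbours in all but 1 of 14 pairs. The break lay between the Tshz1/Foxp2 gate (240 ± 73.1 CPM) and Lhx8/Rorb.

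Calb1 also passed as lower in the Tshz1/Foxp2 gate, by a log2 difference of -0.61 (SE 0.13, adjusted p = 0.00764 in edgeR; 1.03% of genes called), and in the Crh/Wif1 gate, by -0.46 (SE 0.13, adjusted p = 0.0191; 6.01% called), where 3 of 4 libraries were lower. Both were lost without the library term (adjusted p = 0.92 and 0.534) and without library 1 (-0.40 and -0.17), and the first also without library 4 (adjusted p = 0.163). Crh encodes corticotropin-releasing hormone. In the other 6 gates, Pnoc among them (358 ± 76.8 CPM), Calb1 did not pass.

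Calb2 had 1 gate in which it was higher. In Slc17a8-gated cells it reached 869, 561, 354 and 522 CPM (577 ± 215 CPM), against 133 ± 11.9 CPM in the GABAergic cells outside the gate. The lowest of these values was above every GABAergic library mean, and the log2 difference was 2.12 (SE 0.16, adjusted p = 2.51e-12 in edgeR). The gate held 3.85% of the GABAergic cells and 17.2% of their Calb2 UMIs, and 43 of its 84 cells had a Calb2 UMI, values not corrected for depth. Its level overlapped that of the glutamatergic cells and of no other gate.

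Calb2 was least abundant in the Ppp1r1b/Crym gate, where Ppp1r1b encodes DARPP-32, a signalling protein of striatal-type spiny neurons. The levels there were 8.06, 45.8, 13.8 and 21.6 CPM (22.3 ± 16.6 CPM) against 167 ± 12.4 CPM outside. This was 17 UMIs in 232 cells, lower in every library, with a log2 difference of -3.10 (SE 0.26, adjusted p = 1.27e-15 in edgeR) in a gate where 19.9% of genes were called. The value ran from -2.00 with 1 marker UMI to -5.06 with 3. In the Prkcd gate, whose marker encodes protein kinase C delta, Calb2 had 0, 31.6 and 46.9 CPM in libraries 1, 2 and 4 from 6 UMIs. The log2 difference was -2.74 (SE 0.45, adjusted p = 1.66e-07), -3.39 without library 4 and -1.90 with 1 marker UMI, with 7.15% of genes called. The Prox1/Htr3a gate had 33.2, 76.9 and 22.7 CPM in libraries 1, 3 and 4 and a log2 difference of -1.72 (SE 0.31, adjusted p = 4.05e-06), which was -2.31 without library 3, -0.78 with 1 marker UMI, and did not pass without library 1 (-1.28, adjusted p = 0.165).

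Smaller reductions of Calb2 passed in 4 more gates, and none of them passed without the library term. In Cck/Greb1 the change was -0.71 on the log2 scale (SE 0.17, adjusted p = 0.00374 in edgeR, and 0.111 without the library term), and it did not pass without library 3 (adjusted p = 0.162). In Lhx8/Rorb it was -0.58 (SE 0.18, adjusted p = 0.0329, and 0.193 without the term), and leaving out any library ended the call, at adjusted p-values from 0.0514 (library 2) to 0.13 (library 4). In Pnoc it was -0.55 (SE 0.12, adjusted p = 0.013, and 0.65 without the term; 1.92% of genes called), lost without library 1 or 4 (adjusted p = 0.0559 and 0.161), and 0.35 in the cells of 1 gate only. In Sst/Npy it was -0.55 (SE 0.15, adjusted p = 0.0353, and 1.00 without the term), lower in 3 of 4 libraries, and it was lost without library 1, 2 or 4 (adjusted p = 0.815, 0.257 and 0.066). Calb2 did not pass in the Zic1/Zic4, Lhx6/Sox6, Six3, Tshz1/Foxp2, Crh/Wif1 and Tac2/Ebf1 gates, where its mean lay between 118 and 166 CPM. Neighbours in its order of levels overlapped in all but 1 of 14 pairs, the break being below the Slc17a8 gate.

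Pcp4 was spread more evenly over the subtypes. Its highest gate was Crh/Wif1 with 1241, 1322, 961 and 1397 CPM, all above the mean of 747 ± 193 CPM outside the gate. A Pcp4 UMI was found in 198 of the 231 cells (85.7%), against 63.8% of all GABAergic-gated cells. These shares are not corrected for depth, with medians of 4830 UMIs in the gate and 3468 UMIs in all GABAergic-gated cells. The log2 difference was 0.75 (SE 0.07, adjusted p = 3.52e-10 in edgeR, and 0.0795 without the library term). In the Tac2/Ebf1 gate, of neurokinin B and a transcription factor, Pcp4 had 1107, 1476, 733 and 1263 CPM and a log2 difference of 0.59 (SE 0.08, adjusted p = 5.54e-08, and 0.362 without the term). That gate had 3.86% of genes called, and its value became -0.12 when cells in more than 1 gate were left out. Library 3 had the lowest Pcp4 in both gates, as it had in GABAergic cells as a whole.

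Pcp4 was lowest in the Slc17a8 and Prkcd gates. Slc17a8-gated cells had 644, 374, 232 and 322 CPM (393 ± 177 CPM) against 841 ± 192 CPM outside, lower in every library, with a log2 difference of -1.11 (SE 0.14, adjusted p = 3.48e-07 in edgeR). Prkcd-gated cells had 0, 211 and 970 CPM in libraries 1, 2 and 4, so that library 4 was above the mean of the other GABAergic cells (931 ± 24.5 CPM) and the other libraries were below it. The fitted log2 difference of -1.68 (SE 0.21, adjusted p = 9.6e-14, and 0.0545 without the library term) ran from -0.94 without library 1 to -3.25 without library 4, and it did not pass without library 2 (adjusted p = 0.159). The differences by library in log2(CPM + 1) had an SD of 5.18 (n = 3), a spread that the SE does not measure. In Cck/Greb1 cells Pcp4 had 303, 656, 464 and 590 CPM, with a log2 difference of -0.83 (SE 0.12, adjusted p = 4.76e-07, and 0.0826 without the term). With DESeq2, which kept the library term, Pcp4 did not pass in the Cck/Greb1 or Prkcd gate (adjusted p = 0.34 and 0.669).

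Pcp4 passed in 4 further gates with smaller values. In Tshz1/Foxp2 its log2 difference was 0.41 (SE 0.10, adjusted p = 0.0166 in edgeR, and 0.999 without the library term), lost without library 1, 3 or 4 (adjusted p = 0.488, 0.128 and 0.476). It was 0.35 in Lhx8/Rorb (SE 0.10, adjusted p = 0.0223, and 0.36 without the term), lost without library 1 or 3 (0.353 and 0.188). In Ppp1r1b/Crym it was 0.26 (SE 0.08, adjusted p = 0.00947, and 0.537 without the term), lost without library 1 or 4 (0.175 and 0.157). In Prox1/Htr3a it was -0.57 (SE 0.15, adjusted p = 0.00954, and 1.00 without the term), lost without library 1 or 3 (0.203 and 0.718). The Lhx6/Sox6 gate, at 1108, 744, 364 and 1798 CPM, did not pass and had the widest spread of the gates with 4 libraries. The Zic1/Zic4 and Six3 gates did not pass either, where 2.8% and 1.16% of genes were called. In the Sst/Npy gate Pcp4 had 992, 935, 416 and 1271 CPM and a log2 difference of 0.21 (adjusted p = 0.376), and in the Pnoc gate 0.14 (adjusted p = 0.645), each higher in 3 of 4 libraries and neither passing. Every pair of neighbours in the order of Pcp4 levels overlapped.

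**Figure D2:**
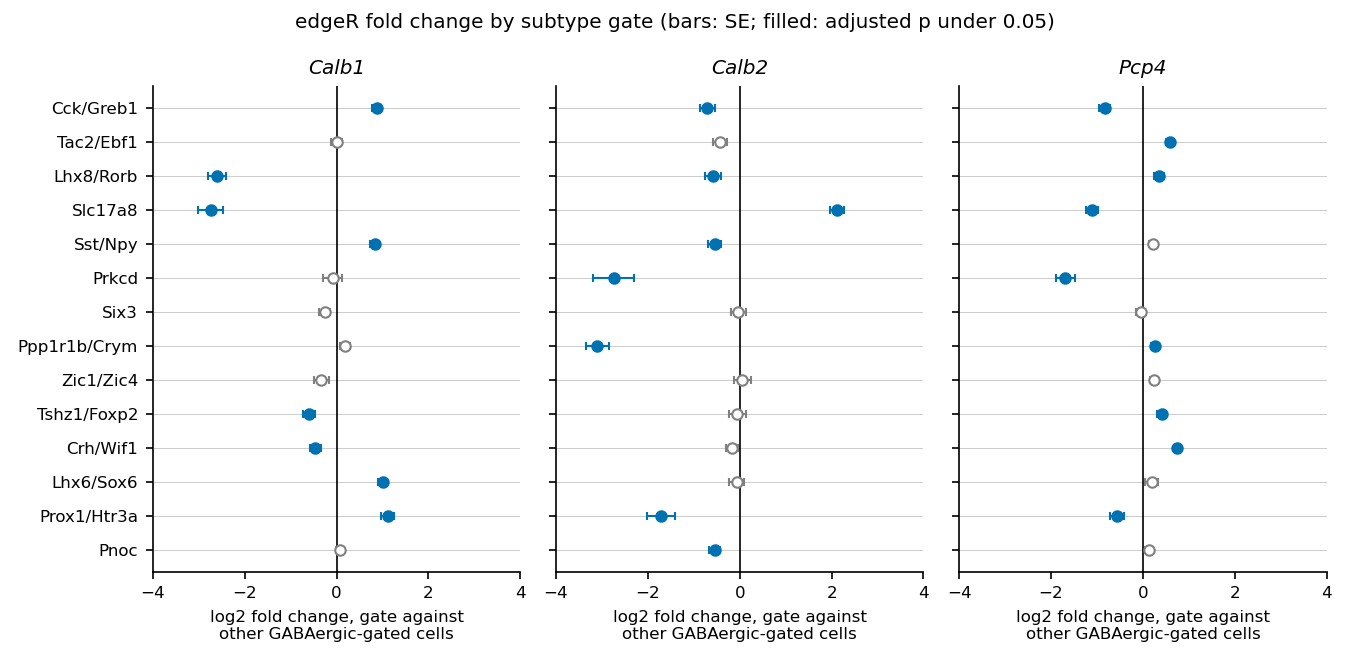
edgeR log2 fold change of Calb1, Calb2 and Pcp4 in each GABAergic subtype gate against the other GABAergic-gated cells, with the SE as bars and filled points at an adjusted p under 0.05. Calb1 and Calb2 lay on opposite sides of 0 in the Slc17a8 gate (-2.74 and 2.12), while Pcp4 lay between -1.11 and 0.75 outside the Prkcd gate.

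Pvalb was rare and rested on library 1. It was found in 22 of 2184 GABAergic-gated cells (1.01%, exact 95% interval 0.632% to 1.52%), at 29.9, 1.05, 2.11 and 3.04 CPM in libraries 1 to 4. Library 1 gave 108 of the 119 UMIs and 16 of the 22 cells. The 5 cells with the most Pvalb UMIs, from 7 to 32 per cell, were all in library 1 and all in the Sst/Npy gate, and they held 79 of the 126 Pvalb UMIs in kept cells. In library 1 the Sst/Npy gate had 126 CPM and the Six3 gate 197 CPM, and both gates had no Pvalb UMI in libraries 2, 3 and 4. These are largely the same cells: the 78 Pvalb UMIs of the Six3 gate came from 5 cells that also count among the 89 UMIs of the Sst/Npy gate. With libraries pooled, no Pvalb UMI was found in 8 of the 14 gates, for example in 0 of 232 Ppp1r1b/Crym cells, which allows a share of up to 1.29% by the limit of 3 cells and 1.58% by the exact 95% interval (counting error only), and 0 of 51 Prkcd cells, which allows up to 5.88% and 6.98%.

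Cells with at least 2 Pvalb UMIs numbered 12, of which 11 were in library 1. They had no Calb2 UMI, 10 Calb1 UMIs in 3 cells and 42 Pcp4 UMIs in 2 cells, 40 of them in 1 cell. Calb1 was thus at 150.3 CPM and Pcp4 at 631 CPM in them, against 346 and 849 CPM in GABAergic cells with no Pvalb. Within library 1 the values were 171 CPM of Calb1 and 720 CPM of Pcp4 in the 11 cells, against 389 and 886 CPM. Sst was detected in 6 of the 12 cells and Six3, a transcription factor of ventral forebrain neurons, in 8, while Lhx6 was in none. Among the 2162 GABAergic cells with no Pvalb UMI, Sst was in 265, Six3 in 446 and Lhx6 in 261. At their median depth of 4454.5 UMIs and in 12 cells, the absence of Lhx6 or Calb2 UMIs does not show that the genes were off. The 12 cells were picked by their Pvalb UMIs, so these values describe them and were not tested.

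**Figure D3:**
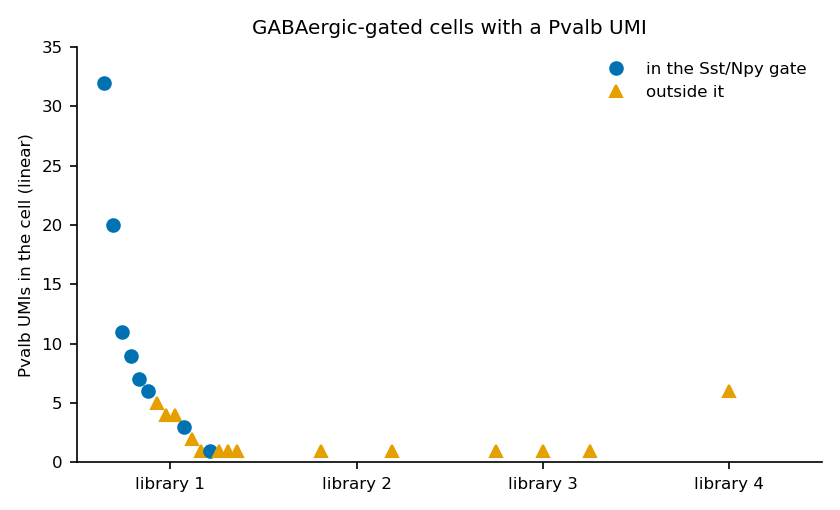
Pvalb UMIs (linear axis) in each of the 22 GABAergic-gated cells with at least 1, by library, with circles for cells in the Sst/Npy gate and triangles for cells outside it. The cells with 7 to 32 UMIs were all in library 1 and in the Sst/Npy gate, and 1 cell of library 4 had 6.

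Co-detection was read in the 1606 GABAergic-gated cells thinned to 2000 UMIs. Of these, 505 had Pcp4 alone (31.4%), 202 Calb1 alone (12.6%), 64 Calb2 alone (3.99%) and 372 none of the 3 genes (23.2%). Calb1 with Pcp4 and without Calb2 was the most frequent pair (251 cells, 15.6%), followed by Calb2 with Pcp4 (130 cells, 8.09%) and Calb1 with Calb2 (40 cells, 2.49%), and 42 cells had all 3.

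The observed numbers were set against those expected from the numbers of cells with each gene in a library if the genes were unrelated, and no pair passed a test. Calb1 and Calb2 shared 82 cells where 91.0 were expected, with log2 ratios of -0.12, -0.40, 0.11 and -0.14 in libraries 1 to 4 (mean -0.14 ± 0.21, SD, n = 4). Calb1 and Pcp4 shared 293 cells where 309 were expected (mean log2 ratio -0.07 ± 0.16), lower in libraries 1 and 3 and higher in libraries 2 and 4. Calb2 and Pcp4 shared 172 cells where 160.1 were expected, higher in 4 of 4 libraries (0.09, 0.11, 0.21 and 0.05, mean 0.11 ± 0.07). Exact permutation tests by sign flips over the 4 libraries (two-sided) gave p of 0.25, 0.5 and 0.13, and 0.38, 0.5 and 0.38 after Benjamini-Hochberg adjustment over these 3 pairs, and none can go below 0.13. A second draw of the thinning moved the mean log2 ratio of Calb2 and Pcp4 to 0.01, and without thinning it was 0.21. The same second draw gave Calb1 and Calb2 ratios of -0.40, -0.27, -0.06 and -0.12 (mean -0.22), below 0 in 4 of 4 libraries, while without thinning their mean was 0.15. With expectations summed within sets of subtype gates, the means were 0.02, -0.04 and 0.13. Of 6 possible pairs, those with Pvalb were too rare to test: 4 cells with Calb1 (4.76 expected), 1 with Calb2 (2.2 expected) and 3 with Pcp4 (7.80 expected). In the same thinned cells the level of Calb2 was 174 ± 22.5 CPM with and 130.0 ± 20.7 CPM without a Pcp4 UMI, higher in 4 of 4 libraries (log2 fold change 0.43, SE 0.14), which did not pass over all genes (adjusted p = 0.216 in edgeR).

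**Figure D4:**
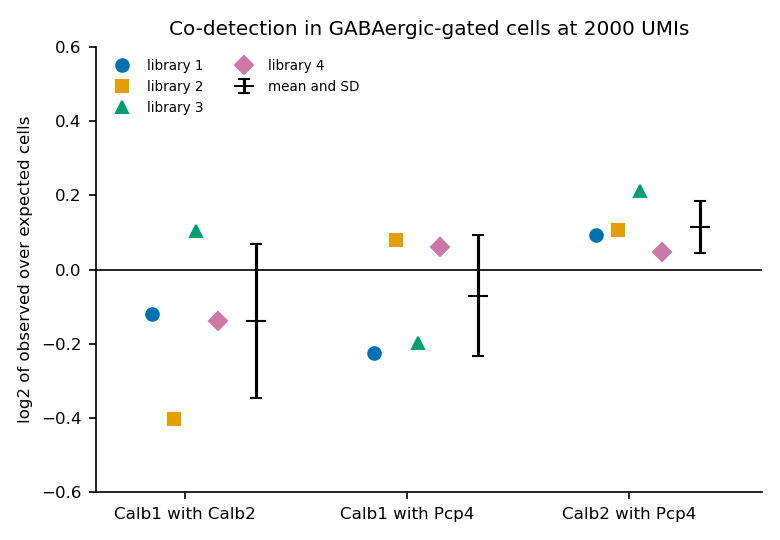
log2 of observed over expected numbers of GABAergic-gated cells with both genes of a pair, by library, with the mean and SD. In the draw of the thinning plotted, Calb2 with Pcp4 was above 0 in every library and reached 0.21, and the other pairs had libraries on both sides of 0.

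The combinations were also counted by subtype gate. In the Slc17a8 gate Calb2 with Pcp4 and without Calb1 was the most frequent combination among cells with any of the 3 genes, at 24 of 74 thinned cells (53.3%, 20.0%, 38.5% and 28.6% in libraries 1 to 4), where Calb1 alone, Calb1 with Calb2, Calb1 with Pcp4 and all 3 genes had 1 cell each. In the Ppp1r1b/Crym gate 28 of 198 cells had Calb1 alone and 45 Calb1 with Pcp4. Calb2 was in few cells there, 1 alone and 3 with Pcp4, so that the lack of a cell with Calb1 and Calb2 (a share of up to 1.52%) says little about the pair. In Lhx8/Rorb cells Pcp4 alone made up 52 of 95, and in Prkcd cells none of the 3 genes was found in 22 of 48. Glutamatergic cells had all 3 genes in 11 of 77. These shares describe the gates and were not tested between them.

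**Figure D5:**
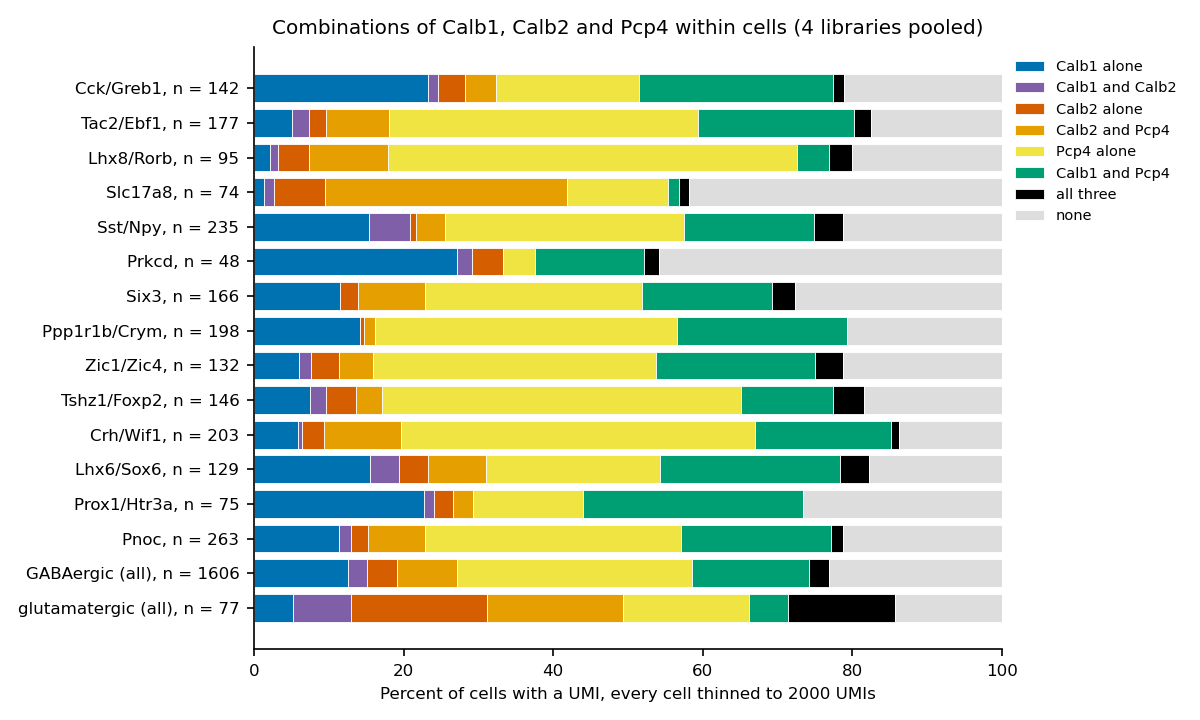
Percent of cells by which of Calb1, Calb2 and Pcp4 had a UMI after thinning to 2000 UMIs, with the 4 libraries pooled and the number of cells beside each gate. Calb2 with Pcp4 takes 32.4% of the Slc17a8 gate, and Pcp4 alone takes 54.7% of Lhx8/Rorb.

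GABAergic-gated cells with and without a UMI of each gene, thinned to 2000 UMIs, were then compared over all genes by edgeR with library as a block. Slc17a8, Ppp1r1b, Crym, Prkcd, Sst and Npy are gate markers read in the same cells. Their values here are not independent of the gate results above and add no separate evidence. Calb1-positive cells (535 of 1606) differed in 63 of 6470 genes, 0.634% of genes being higher and 0.34% lower, and 54 of the 63 moved the same way in all 4 libraries. The largest rises among those 54 were in Moxd1, a monooxygenase-like gene (log2 fold change 2.72, SE 0.42, adjusted p = 6.69e-08), St18, a zinc finger transcription factor (1.95), Igfbp4, which binds insulin-like growth factors (1.61), Crhbp, which binds corticotropin-releasing hormone (1.53), and Tmem176b (1.51). The largest falls were in Gal, the gene of the neuropeptide galanin (-2.94, SE 0.18, adjusted p = 6.02e-57), Slc17a8 (-2.89), the homeobox gene Pbx3 (-1.83), As3mt (-1.43) and Sema3c (-1.37). Gal stood at 35.9 ± 16.3 CPM in Calb1-positive and 294 ± 212 CPM in Calb1-negative cells, and Moxd1 at 46.5 ± 20.2 and 6.62 ± 5.10 CPM. Moxd1, Gal and Pbx3 were called under all alternatives that could be fitted. Leaving out library 1 ended the calls of St18 (adjusted p = 0.0847) and Tmem176b (0.0572), leaving out library 1, 3 or 4 that of As3mt (0.44, 0.138 and 0.422), and leaving out library 2 or 3 that of Sema3c (0.22 and 0.272). Another draw of the thinning also ended the calls of Tmem176b (0.82, adjusted p = 0.362), As3mt (-0.73, adjusted p = 0.451) and Sema3c (-0.96, adjusted p = 0.251). Without library 1, and likewise without library 4, 41 genes were called. Without the library term 5 genes were called, and Igfbp4, Crhbp, Tmem176b, As3mt and Sema3c did not pass (adjusted p from 0.0949 to 1.00).

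Calb2-positive cells (276 of 1606) differed in 147 of 5601 genes (1.05% higher, 1.57% lower), 131 of them in the same direction in all 4 libraries. The rises were led by the transcription factor Zeb2 (log2 fold change 2.07, SE 0.38, adjusted p = 4.33e-05 in edgeR), Igfbp4 (1.92), Slc17a8 (1.80), Cntnap1, a protein of the axon surface (1.45), and Arhgap36 (1.39). Slc17a8 was at 158 ± 70.4 CPM in Calb2-positive and 45.5 ± 22.2 CPM in Calb2-negative cells. The falls were led by Ppp1r1b (-4.57, SE 0.44, adjusted p = 3.82e-15), which had 3 UMIs in Calb2-positive and 382 in Calb2-negative cells, Ramp1, a receptor-modifying protein (-2.98), Crym, a thyroid hormone-binding protein (-2.60), Cartpt, a neuropeptide precursor (-2.34), and Arpp21, a phosphoprotein of dopamine-receptive neurons (-2.30). Cartpt was at 93.9 ± 77.0 CPM with and 554 ± 63.9 CPM without Calb2. Igfbp4, Slc17a8, Ppp1r1b, Crym and Arpp21 were called under all alternatives that could be fitted. Without the library term 24 genes were called, and Zeb2, Cntnap1 and Arhgap36 did not pass (adjusted p = 0.104, 0.133 and 0.11). Without library 1, 78 genes were called, Crym was at -3.45 and Ramp1 at -2.27. Ramp1 was at -3.82 without library 2, where Arhgap36 did not pass (adjusted p = 0.053; in another draw of the thinning it was 0.64, adjusted p = 0.485), and Ppp1r1b was at -5.78 without library 3.

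Pcp4-positive cells (928 of 1606) differed in 52 of 6697 genes (0.418% higher, 0.358% lower), 51 of them in the same direction in all 4 libraries. They had more of the kinase gene Stk32a (log2 fold change 2.57, SE 0.49, adjusted p = 0.00254 in edgeR), Npy (1.97), Asb4 (1.97), Gal (1.88) and Sst (1.69). They had less of Prkcd (-2.14, SE 0.38, adjusted p = 0.00155), the immediate early gene Egr4 (-1.48), Cartpt (-1.03) and Gsta4, a glutathione transferase (-0.99). Npy stood at 961 ± 619 CPM with and 243 ± 155 CPM without Pcp4, and Sst at 1535 ± 1291 and 436 ± 317 CPM, so the libraries varied widely within both groups. In the Sst/Npy gate against other GABAergic cells Pcp4 itself had not passed (log2 difference 0.21, adjusted p = 0.376). Without the library term 1 gene was called, and none of the 9 genes named here passed (adjusted p from 0.0576 to 0.533). Leaving out library 1, 3 or 4 left 30, 34 and 28 genes, and Egr4 did not pass without library 2 or 3 (adjusted p = 0.133 and 0.16). Without library 1, Gal was at 3.43 and Sst at 2.47, without library 2 Gal at 1.26, without library 3 Stk32a at 3.67, and without library 4 Npy at 1.38, Sst at 0.99 and Prkcd at -3.70. Pvalb had too few positive cells for such a fit.

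The counting strand was not given in the sources used here. Tmem176b, Pbx3, Cntnap1, Ppp1r1b and Arpp21 overlap a listed gene on the other strand, so their counts may hold reads of that gene.

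A panel of 47 further genes for calcium-binding proteins, calmodulin partners and calcium pumps was followed beside the 4 genes. In GABAergic against non-neuronal cells 37 of 45 tested panel genes were higher and 5 lower, where 36.6% and 34.5% of all genes were, with a median log2 fold change of 2.86 against 0.04 over all genes tested. The largest changes were falls in 4 genes of the S100 family of EF-hand proteins: S100a16 (-8.56), S100a6 (-6.76), S100a1 (-6.64) and S100b (-6.63). S100a10 of the same family, named after its values were seen, was higher instead (2.99, SE 0.30, adjusted p = 3.97e-15 in edgeR, 4 of 4 libraries). Against glutamatergic cells 1 of 41 was higher and 4 were lower in GABAergic cells (1.5% and 0.906% of all genes), with a median of 0.07 against 0.06 over all genes. The fallers were Camk2n1, an inhibitor of calmodulin-dependent kinase II (-1.44), Pcp4l1, a relative of Pcp4 (-1.11), the potassium channel partner Kcnip1 (-1.01) and the neuronal calcium sensor Ncald (-0.87).

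In Calb2-positive GABAergic cells 8 of 37 panel genes passed and all 8 were lower, where 1.05% of all genes were higher and 1.57% lower, with a median of -0.16 against 0.00 over all genes. They were led by Pcp4l1 (-1.91, SE 0.32, adjusted p = 6.81e-06 in edgeR), the calcium sensor Hpcal4 (-0.78), neurogranin or Nrgn, which binds calmodulin (-0.69), and the plasma membrane calcium pump Atp2b2 (-0.64). Pcp4l1 stood at 27.9 ± 20.5 CPM with and 104 ± 14.6 CPM without Calb2. In Calb1-positive cells 3 of 38 passed (0.634% of all genes higher and 0.34% lower), with Necab1 (0.54) and the pump Atp2b1 (0.31) higher and Kcnip4 (-0.58) lower, and Necab1 was higher in 3 of 4 libraries. Without the library term the genes called with Calb1 were Moxd1, St18, Gal, Slc17a8 and Pbx3, so these 3 panel genes were lost. In Pcp4-positive cells 4 of 38 passed (0.418% of all genes higher and 0.358% lower), with Pcp4l1 (0.91) and Camk2n1 (0.48) higher and Hpcal4 (-0.47) and Nrgn (-0.36) lower. At least 3 of these 4 were lost without the library term, where almost no gene was called. Pcp4l1 stood at 118 ± 34.3 CPM with and 58.1 ± 10.5 CPM without Pcp4. Kcnip1, Ncald, Kcnip4, Necab1, Atp2b2 and S100b also overlap a listed gene on the other strand.

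Over 20 class and subtype gates, the genes whose mean log2 level was most like that of Calb1 were Ankrd50, Necab1 and Ids (Pearson r 0.95, 0.92 and 0.92, among 7845 genes). For Calb2 they were 1700001L19Rik, Nenf and Ran (0.94, 0.93 and 0.92), and for Pcp4 Tspyl3, Trp53i11 and Shoc2 (0.97, 0.97 and 0.96). Pvalb had no gene above 0.58. These values describe gates that share libraries and cells, and they carry no test. Over the 14 subtype gates alone other genes came first, Gps2 for Calb1 (0.94), Cd99l2 for Calb2 (0.96) and Rilpl1 for Pcp4 (0.97), so the nearest gene depended on which gates were compared.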

How the data were processed

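The authors deposited 1 table of raw UMI counts per library (genes by barcodes). Per the submitters' processing notes, bcl2fastq 2.18.0.12, STAR 2.4.2a, Picard 2.2.4 and the builds mm10 and GRCm38 were used; the counting strand and the choice of barcodes are not given in the sources used here.

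Barcodes with at least 400 genes and at most 10% mitochondrial UMIs were kept, and Scrublet (scanpy 1.11.5, expected rate 0.05) run on each library by itself, removed 58 of 4239 cells in all (1.37%). A class gate is the class with the largest marker UMI sum, at least 2 UMIs and no tie. Raw counts were summed per library and gate, with at least 10 cells per side in at least 3 libraries, and tested with edgeR 4.0.16 (R 4.3.3; TMM, filterByExpr) with a term for library, because the 2 sums compared are drawn from 1 pool of mice. The SE given with an edgeR fold change is its absolute log2 value over the square root of the F statistic. This SE and the p-value rest on a variance that edgeR moderates over all genes. They can therefore be far smaller than the spread of a single gene between libraries would give. DESeq2 1.42.0 was an alternative. The scripts were tested on simulated data. CPM is a gene's UMIs over all UMIs of the gate, and SDs are over libraries, whose spread is between pools. A likeness is Pearson's r of log2(CPM + 1) for genes with at least 20 CPM. Tables and plots used matplotlib 3.10.9, pandas 2.3.3, scipy 1.17.1 and numpy 2.4.6 under Python 3.11.15.

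The 4 genes, the gates and the lists were chosen with earlier results of these data known. Named were the 4 genes, up to 4 called panel genes per comparison with the largest change, the 5 largest rises and 5 largest falls that moved the same way in every library, and the 3 genes most like each. Of the falls with Pcp4, 1 is not reported here.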

Additional observations from a re-analysis of the deposited data

Results flagged for a closer look

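In sets of 4 library values of 1 gene in 1 gate, 12 of 59 had a library that stood apart from the others by a gap larger than Dixon's 95% critical value for 4 values, a limit that chance passes in about 1 in 20 sets. The number of such sets cannot be read against that share, because gates share cells and because, where 3 libraries are at 0 (8 of the 12 sets), any UMI in the fourth passes it. Of these 12, 8 were Pvalb values. In library 1 Pvalb was at 29.9 CPM in GABAergic-gated cells (1.05 to 3.04 CPM in the others), 126 CPM in the Sst/Npy gate, 197 CPM in Six3, 35.1 CPM in Pnoc, 7.70 CPM in Tac2/Ebf1 and 4.09 CPM in Zic1/Zic4, with 0 in libraries 2 to 4 of those 5 gates. All 78 UMIs of the Six3 gate came from 5 cells that are also in the Sst/Npy gate (89 UMIs), and the Pnoc value is 1 of these cells, with 32 UMIs. Library 3 stood apart for Pvalb in the Lhx6/Sox6 gate (9.10 CPM) and library 4 in unassigned cells (6.75 CPM, 1 UMI), with 0 in the others.

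Pcp4 in GABAergic-gated cells stood apart in library 3, at 536 CPM against 886 to 933 CPM. Calb2 stood apart in library 2 in GABAergic-gated cells (174 CPM against 144 to 146 CPM) and in library 3 in the Zic1/Zic4 gate (288 CPM against 112 to 139 CPM). Calb1 in astrocytes was at 20.3 CPM in library 3 and 0 in the others, from 2 UMIs. The causes were not tested.

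The 395 unassigned cells, which entered no comparison, had 254 ± 78.0 CPM of Calb1, 384 ± 111 CPM of Calb2 and 713 ± 287 CPM of Pcp4 (SD, n = 4), above the non-neuronal means of 8.12, 15.99 and 29.5 CPM. Their median depth was 782 UMIs. With libraries pooled, the summed neuronal genes stood at 14791 CPM in the unassigned cells and 16488 CPM in GABAergic-gated ones. Oligodendrocyte precursors, the highest non-neuronal gate, had 2246 CPM. The part of neurons that the gates missed in these values was not tested.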

How the results depend on the processing

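The 6 class differences of Calb1, Calb2 and Pcp4 kept their direction and side of the threshold under all 75 alternatives run. Among 342 alternatives of the 25 called gate differences, 260 kept both, 80 lost the call and 2 changed sign: with cells in 1 subtype gate only, Calb2 in Pnoc was 0.35 and Pcp4 in Tac2/Ebf1 -0.12. Of 331 alternatives of the 30 genes chosen in the positive-cell comparisons, 52 lost the call.

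Library was a block in the main tests because the 2 sums compared are drawn from 1 pool of mice. With no replicate block, 5 pairs of gene and gate were called higher (10 with it) and 6 lower (15), and 5, 24 and 1 genes were called for Calb1-, Calb2- and Pcp4-positive cells (63, 147 and 52). DESeq2 gave 6 lower pairs and 7, 18 and 8 genes. Leaving out 1 library gave 7 to 8 higher and 8 to 12 lower pairs (libraries 1 and 4, where all gates could be fitted), and 41 to 54, 78 to 125 and 28 to 45 genes. Thinning to 1000 UMIs gave 34, 49 and 17 genes, and no thinning 221, 600 and 305. At least 2 Calb2 UMIs gave 76 genes.

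The mean log2 ratio of observed over expected cells without thinning was 0.15 for Calb1 with Calb2 and 0.21 for Calb2 with Pcp4, and the latter was 0.0314 at 1000 UMIs and 0.00990 in another draw, an alternative chosen after seeing the data. Shares of GABAergic cells without thinning were 38.8% for Calb1 and 22.9% for Calb2, and at 1000 UMIs 21.1%, 10.7% and, for Pcp4, 41.8%. Where these values moved, the cause was not tested beyond the depth or number of samples each alternative changes. Several gates could not be fitted with fewer cells: Prkcd at 5% mitochondrial UMIs, at 3 marker UMIs and thinned, Prox1/Htr3a at 3 marker UMIs and thinned, Lhx6/Sox6 and Lhx8/Rorb thinned, and 5 gates with cells in 1 gate only. GABAergic against glutamatergic cells could not be fitted at 3 marker UMIs or thinned to 2000 UMIs. Pvalb had too few UMIs for any fit.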
